A study of Rattus norvegicus with 14 samples.

Results

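The miR-30 family was followed in the serum of hypothyroid and euthyroid rat pups. Its members were the rows of the deposited count table named miR-30a, miR-30b, miR-30c, miR-30d or miR-30e, with either arm of the precursor, and they numbered 9 of the 375 mature miRNAs listed. There were 5 arms from the 5p side of the hairpin (miR-30a-5p, miR-30b-5p, miR-30c-5p, miR-30d-5p and miR-30e-5p) and 4 from the 3p side (miR-30a-3p, miR-30c-2-3p, miR-30d-3p and miR-30e-3p). All 9 passed the filter on low counts, with 357 miRNAs tested in all.

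Small RNA was sequenced from the serum of female Long Evans rats on postnatal day 8, with 1 pup taken per litter. In the PTU group (6 libraries) the dams drank water with 3 ppm of propylthiouracil, a drug that blocks the making of thyroid hormone, and the labels call these pups hypothyroid. In the control group (8 libraries) the water held 0 ppm and the pups are called euthyroid. The exposure was of the dam, in pregnancy or lactation per the labels. Serum holds RNA released by many tissues, and a lower level may come from fewer releasing cells, less RNA per cell or less release, which cannot be told apart here.

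A microRNA is cut from a hairpin precursor, and the arm that is loaded into Argonaute (the guide) pairs with messenger RNAs mainly through its seed, bases 2 to 8 from the 5′ end. In the miR-30 family the 5p arms are the usual guides. The family is widely made in vertebrate tissues, among them kidney, lung and heart, and in rodents it is known for restraining connective tissue growth factor in the heart and Snai1, a regulator of the epithelial-to-mesenchymal transition. By the gene table of RefSeq (rat GRCr8), the 6 precursor genes lie in 3 pairs of direct neighbours among miRNA genes: Mir30e with Mir30c1 on chromosome 5, both within the gene of the transcription factor subunit Nfyc, Mir30b with Mir30d on chromosome 7, and Mir30a with Mir30c2 on chromosome 9. miR-30c-5p is made from both Mir30c1 and Mir30c2, so its counts cannot be assigned to one of these genes.

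The mature sequences below show which part of the family is shared and how little separates its members. They come from RefSeq (GRCr8), where 5 of the 9 members matched by name, and the seed is in capitals.
miR-30a-5p: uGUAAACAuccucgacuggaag
miR-30e-5p: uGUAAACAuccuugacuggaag
miR-30c-5p: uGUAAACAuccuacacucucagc
miR-384-5p: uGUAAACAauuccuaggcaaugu
miR-30a-3p: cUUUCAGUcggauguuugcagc
miR-30c-2-3p: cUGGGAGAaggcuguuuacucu
The first 3 share the seed GUAAACA. miR-384-5p, from the X-linked Mir384, is the 1 other listed miRNA with a matched sequence that has this seed, and it is shown as the nearest relative outside the family. The 3p arms of miR-30a and miR-30c-2 carry other seeds, UUUCAGU and UGGGAGA. miR-30a-5p and miR-30e-5p differ at 1 of 22 bases, C13U, counted from the 5′ end of miR-30a-5p. miR-30a-5p and miR-30c-5p differ at 5 of 22 bases, the first at position 13. A read that ends before position 13 does not hold the base that separates miR-30a-5p from miR-30e-5p. How such reads, or reads with a mismatch there, were divided is not known. The split between miR-30a-5p and miR-30e-5p may thus be less certain than their sum.

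Total counts over the listed miRNAs ran from 452961 to 2119979 per library, and a count of 3 equalled 6.62 counts per 1e6 counts (CPM) in the smallest library and 1.42 in the largest. These totals cover the 375 listed miRNAs and may not be the full depth of the libraries. The libraries are of separate animals. No miRNA of the 357 tested passed a false discovery rate of 0.05 in either direction (0% called; quasi-likelihood test of edgeR, Benjamini-Hochberg adjusted). At an unadjusted p under 0.05 there were 47, or 13.2%, of which 28 were higher (7.84%) and 19 lower (5.32%) in PTU. DESeq2 called 1 miRNA and edgeR's likelihood ratio test 3, with 0 of the 9 miR-30 members among them.

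The family took 2.06% ± 0.375 of the listed counts in PTU serum (SD, n = 6) and 2.07% ± 0.107 in control serum (SD, n = 8). The share was 1.63% in the lowest PTU library, 2.03% at the median and 2.66% in the highest. In control libraries the lowest was 1.93%, the median 2.05% and the highest 2.22%. The mean shares differed by -0.013 percentage points, and PTU libraries lay on both sides of the control range: 2 were above the highest control library and 2 below the lowest. This picture depended on the scaling. After TMM scaling between libraries, the members summed to 19696 ± 1973 CPM in PTU and 21223 ± 961 CPM in controls (SD, n = 6 and 8), with 3 PTU libraries below the control range and 0 above it. That difference of -1527 CPM equals -0.15 percentage points, and it was -958 CPM without PTU replicate 1. Among counts other than those of miR-206-3p, the most abundant miRNA, the family took 3.25% ± 0.443 in PTU and 3.32% ± 0.162 in controls, with 4 PTU libraries below the control range and 1 above it. None of these sums was tested. Wilson 95% binomial intervals of the family share of all listed counts were at most 0.0828 percentage points wide, and they cover counting error only. The 5p arms made up nearly all of the family, at 1.96% ± 0.371 of the counts in PTU and 1.96% ± 0.102 in controls. The 3p arms took 0.0936% ± 0.0102 in PTU and 0.107% ± 0.00876 in controls (SD, n = 6 and 8).

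3 of the guide arms supplied most of the family. Over all libraries miR-30d-5p averaged 7502 CPM (counts per 1e6 counts, after TMM scaling of the libraries), which ranked it 17 among the 357 tested miRNAs. miR-30a-5p followed at 6123 CPM (rank 24) and miR-30e-5p at 4621 CPM (rank 28). Far below came miR-30c-5p at 884 CPM, miR-30a-3p at 572 CPM, miR-30b-5p at 422 CPM and miR-30e-3p at 397 CPM. miR-30c-2-3p at 33.2 CPM and miR-30d-3p at 13.8 CPM were the scarcest. The order of the first 5 held in all 14 libraries. miR-30a-3p stood above miR-30b-5p in 13 of 14 libraries, and the next neighbours, miR-30b-5p and miR-30e-3p, did not keep an order, since miR-30b-5p was the higher of the pair in 5 of 14. Levels of different miRNAs also depend on how well each is captured in a library, which was not measured here.

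**Figure D1:**
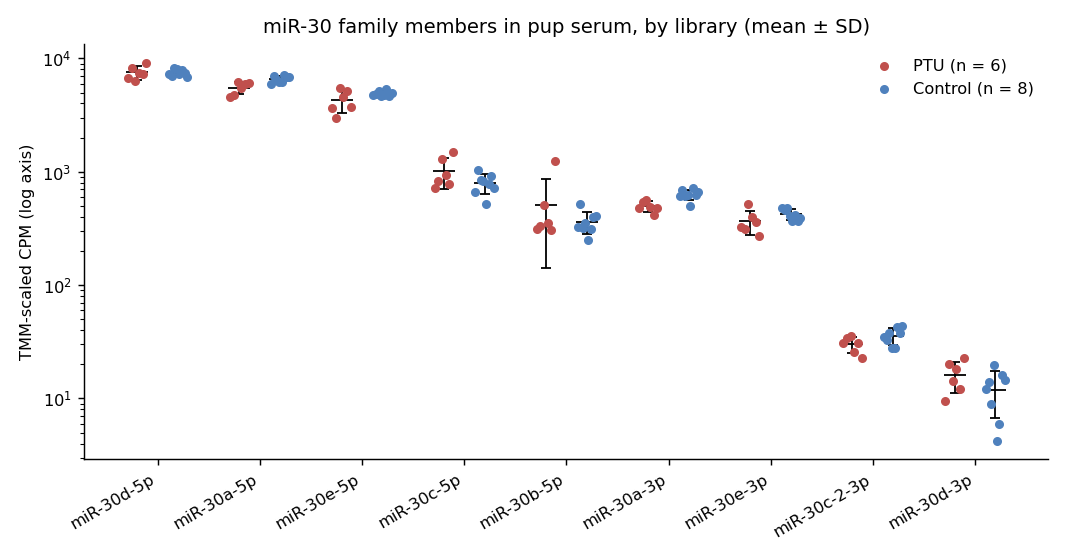
TMM-scaled CPM (log axis) of the 9 miR-30 members in 6 PTU libraries (left of each pair) and 8 control libraries (right). Points are libraries and black bars mean ± SD. Of miR-30b-5p, 1 PTU library at 1234 CPM stands above all others, while for miR-30a-5p and miR-30a-3p the 6 PTU points lie in the lower part of the control range or below it.

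Both arms of miR-30a had a lower mean in PTU, and neither passed the adjusted threshold. miR-30a-5p had 4577 CPM in the lowest PTU library, 5717 at the median and 6182 in the highest. In control libraries the lowest was 5900 CPM, the median 6711 and the highest 7106. All 6 PTU libraries lay below the control median and 3 below the lowest control library, so the groups overlapped. These positions are after TMM scaling. As plain shares of the listed counts, PTU replicates 5 and 6 lay above the control median. No member had groups that did not overlap, against 2 of the 357 tested miRNAs (0.56%). The means were 5500 ± 685 CPM over the 6 PTU libraries and 6590 ± 436 CPM over the 8 control libraries (± SD). The fitted log2 fold change was -0.26 ± 0.11 (SE; 95% interval -0.49 to -0.036; unadjusted p = 0.0256, adjusted p = 0.277 by edgeR). Without scaling factors it was -0.16 (adjusted p = 0.555 by edgeR).

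miR-30a-3p, the arm on the other side of the same hairpin, had 412 CPM in the lowest PTU library, 488 at the median and 564 in the highest. In control libraries it had 497 CPM at the lowest, 620 at the median and 720 at the highest. All 6 PTU libraries were below the control median and 4 were below the lowest control library. edgeR fitted a change of -0.34 ± 0.12 on the log2 scale (SE), between -0.61 and -0.081 at 95% confidence (unadjusted p = 0.0132, adjusted p = 0.258), rank 16 by p of the 357. These were the only members with an unadjusted p under 0.05. The arms share a precursor and are not independent of each other.

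miR-30c-2-3p, from the neighbouring gene, also had all 6 PTU libraries below the control median. It averaged 29.95 ± 4.92 CPM over the 6 PTU libraries and 35.6 ± 6.10 CPM over the 8 control libraries (± SD). Its counts were 13 to 74 per library, and its log2 fold change of -0.25 ± 0.17 (SE) had an interval from -0.61 to 0.10 (adjusted p = 0.502 by edgeR). Among all 357 tested miRNAs, 25 (7%) had every PTU library below the control median, and 11 (3.08%) had every PTU library above it, 0 of them a miR-30 member. The 3 members with every PTU library below it were the 3 listed arms that come from the Mir30a and Mir30c2 pair alone. These positions are of TMM-scaled CPM and depend on that scaling. As plain shares of the listed counts, miR-30a-5p and miR-30c-2-3p each had PTU libraries above the control median. The 25 also included miR-27b-3p and miR-378a-3p, from outside the family.

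miR-30e, which is encoded next to Mir30c1, differed more in its spread than in its mean. miR-30e-5p had 2981 CPM in the lowest PTU library, 4152 at the median and 5481 in the highest. The 8 control libraries were close together, with 4653 CPM at the lowest, 4805 at the median and 5415 at the highest. Of the PTU libraries 4 were below the lowest control and 1 above the highest. The SD of log2 CPM was 0.33 in PTU and 0.076 in controls. edgeR fitted a log2 fold change of -0.20 ± 0.13 (SE), between -0.48 and 0.083 at 95% confidence (adjusted p = 0.512), and -0.11 without PTU replicate 2, the lowest library. miR-30e-3p averaged 365 ± 87.1 CPM in PTU and 421 ± 45.9 CPM in controls, with a log2 fold change of -0.20 ± 0.15 (adjusted p = 0.548 by edgeR). It too had 4 PTU libraries below the control range and 1 above, and PTU replicate 3 was the highest for both arms. Without that library the value for miR-30e-3p was -0.33. The SD of log2 CPM was larger in PTU for 6 of the 9 members, against 206 of all 357 tested miRNAs (57.7%), and the difference in spread was not tested.

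miR-30d-5p, the most abundant member, showed nearly the same mean in both groups. Its level was 6269 CPM in the lowest PTU library, 7338 at the median and 9129 in the highest, and 6879, 7340 and 8157 CPM in the lowest, median and highest control libraries. 2 PTU libraries were above the control range and 2 below it. The log2 fold change was 0.0025 ± 0.11 (SE), and its 95% interval of -0.22 to 0.23 bounds the difference on either side; with upper-quartile factors, which moved the median of all miRNAs by -0.11, the value was -0.12. Its other arm, miR-30d-3p, was counted only 2 to 32 times per library. It averaged 16.1 ± 4.93 CPM in PTU and 12.0 ± 5.30 CPM in controls (log2 fold change 0.35 ± 0.28, interval -0.24 to 0.95, adjusted p = 0.585 by edgeR). This interval includes 0, so a direction was not settled for miR-30d-3p. Without PTU replicate 6 its value was 0.19.

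miR-30b-5p and miR-30c-5p had the highest fitted changes, and 1 library supplied much of both. miR-30b-5p had 304 CPM in the lowest PTU library, 342 at the median and 1234 in the highest, which was PTU replicate 6. In control libraries it had 251 CPM at the lowest, 339 at the median and 515 at the highest. The medians were thus alike, and 3 PTU libraries lay above and 3 below the control median. The log2 fold change of 0.49 ± 0.29 (SE; interval -0.12 to 1.10; adjusted p = 0.453 by edgeR) became -0.021 without PTU replicate 6.

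miR-30c-5p had 724 CPM in the lowest PTU library, 888 at the median and 1481 in the highest, again PTU replicate 6, with PTU replicate 3 next at 1303 CPM. In control libraries it had 516 CPM at the lowest, 808 at the median and 1029 at the highest. 4 PTU libraries were above the control median and 2 were above the control range. edgeR fitted a log2 fold change of 0.36 ± 0.19 (SE), between -0.040 and 0.75 at 95% confidence (adjusted p = 0.422), and 0.19 without PTU replicate 6.

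PTU replicate 6 was also the highest or lowest library for several sums of markers outside the family, though not always alone beyond the control range. The summed level of the 5 listed erythroid markers of 6 chosen was 19314 CPM there, with PTU libraries from 2858 to 19314 CPM and control libraries from 1802 to 6058 CPM. In all, 4 PTU libraries were above the control range for the erythroid sum and 0 were below it. The 7 markers of kidney and gut epithelium summed to 5358 CPM in this library, with PTU libraries from 1320 to 5358 CPM and control libraries from 1636 to 2622 CPM. Most of that sum was 1 marker, miR-141-3p, at 3441 CPM. The other 6 summed to 1918 CPM in the same library, within the control range of 1235 to 2085 CPM, so the list as a whole did not stand apart there. None of the listed markers of the 6 cell type lists was at 0 in any library. The 5 listed striated muscle markers of 7 chosen were at their lowest in the same library, at 353995 CPM, where PTU libraries reached 590481 CPM and control libraries ran from 412880 to 549446 CPM. For the muscle sum 3 PTU libraries were below the control range and 1 was above it. The 2 endothelial markers ran from 4927 to 11244 CPM in PTU libraries, again highest in replicate 6, and from 5455 to 8372 CPM in control libraries. The 4 leukocyte markers ran from 5630 to 16706 CPM in PTU libraries, highest in replicate 3, and from 5959 to 9566 CPM in control libraries. The 1 listed liver marker of 2 chosen, miR-122-5p, ran from 333 to 2146 CPM in PTU libraries and from 370 to 2567 CPM in control libraries. The part of these cell types in the values of miR-30b-5p and miR-30c-5p was not tested.

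Of the 9 members 4 had a positive and 5 a negative log2 fold change, with a median of -0.20 and a range of -0.34 to 0.49. Over all 357 tested miRNAs 206 were positive (57.7%) and 151 negative (42.3%), with a median of 0.032. With upper-quartile factors 3 members were positive and 6 negative, with a median of -0.31, and the median of all miRNAs was -0.076. For 2 other families with several copies, 5 of 7 let-7 guide arms were positive with a median of 0.065, and 2 of 3 tested members of the miR-29 family with a median of 0.024; with upper-quartile factors both medians were negative, at -0.041 and -0.13. No difference between these lists was tested. The related miR-384-5p averaged 115 ± 14.4 CPM over the 6 PTU libraries and 107 ± 44.97 CPM over the 8 control libraries (± SD), and its fitted log2 fold change was 0.11 ± 0.25 (SE; edgeR adjusted p = 0.907). In the authors' deposited table the FDR of the 9 members ran from 0.388 for miR-30a-3p to 0.970 for miR-30d-5p.

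**Figure D2:**
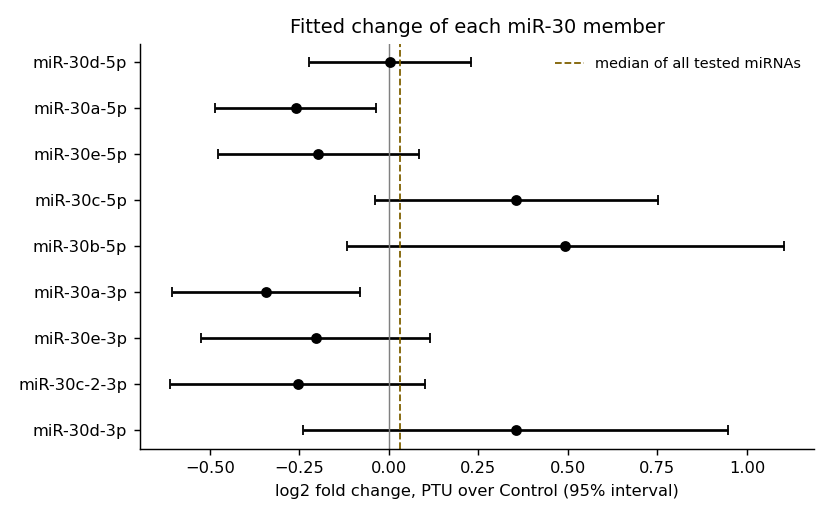
Fitted log2 fold change of each member, PTU over control, with its 95% interval from edgeR's quasi-likelihood fit; the grey line is 0 and the dashed line the median of all tested miRNAs, 0.032. Among the 9, only the intervals of miR-30a-5p and miR-30a-3p do not include 0, before adjustment for multiple tests.

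The 5p arms of the family are known to share a seed, so their counts can be read as 1 pool with its own make-up in each library. miR-30d-5p made up 40.2% ± 5.48 of the 5p counts over the 6 PTU libraries and 37.3% ± 1.99 over the 8 control libraries (± SD). miR-30a-5p made up 29.2% ± 1.49 in PTU and 32.7% ± 1.43 in controls, and 5 of 6 PTU libraries were below the lowest control library, at 30.9%. miR-30e-5p made up 22.7% ± 4.51 in PTU and 24.3% ± 0.963 in controls. Its share was lowest in PTU replicates 6 and 2, at 17.2% and 17.3%, and highest in PTU replicate 3, at 27.8%. miR-30c-5p made up 5.31% ± 1.16 in PTU and 3.91% ± 0.704 in controls, with all 6 PTU libraries above the control median of 3.85%. miR-30b-5p made up 2.60% ± 1.56 in PTU and 1.79% ± 0.390 in controls, and 5.72% in PTU replicate 6. Single libraries weighed on 3 of these differences. For miR-30b-5p the difference of 0.812 percentage points was 0.189 without PTU replicate 6. For miR-30d-5p the difference of 2.90 was 1.31 without PTU replicate 2 and 4.58 without PTU replicate 3. For miR-30e-5p the difference of -1.61 was -0.513 without PTU replicate 6 and -0.537 without PTU replicate 2, while leaving out PTU replicate 3 gave -2.63. For miR-30a-5p it stayed between -3.91 and -3.21 with each library left out in turn, and for miR-30c-5p between 1.09 and 1.66. These shares were not tested.

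**Figure D3:**
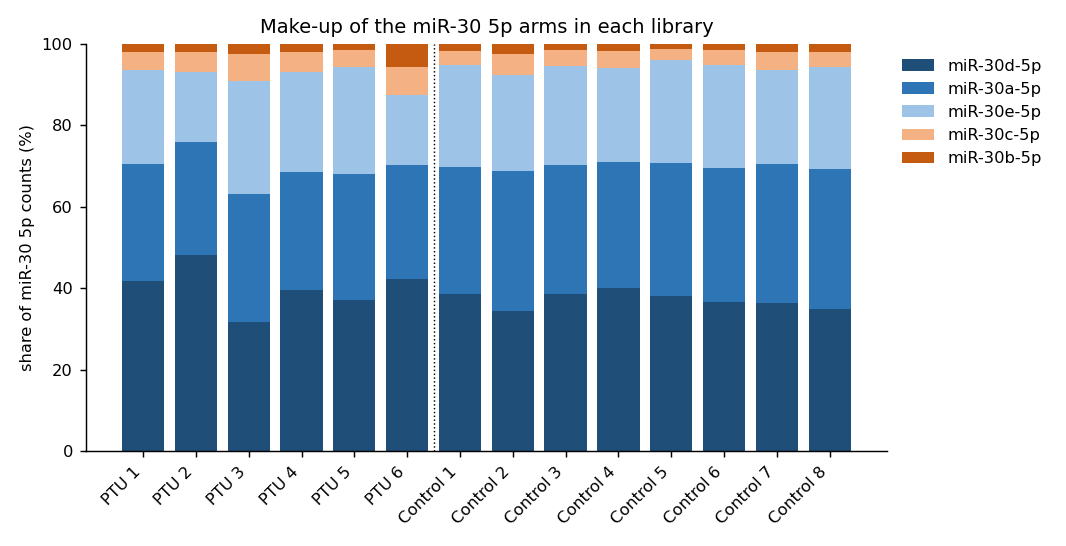
Share of the miR-30 5p counts (%) taken by each of the 5 guide arms in each library, PTU libraries left of the dotted line and control libraries right of it. miR-30d-5p ranged from 31.8% to 48.1% over the PTU libraries and from 34.5% to 40.2% over the control libraries.

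Ratios of counts within a library do not depend on the scaling between libraries. The log2 ratio of miR-30a-5p to miR-30c-5p averaged 2.49 ± 0.32 over the 6 PTU libraries and 3.09 ± 0.26 over the 8 control libraries (± SD). It was 2.02 in the lowest PTU library, 2.52 at the median and 2.95 in the highest, and 2.76, 3.05 and 3.57 in the lowest, median and highest control libraries. 5 of 6 PTU libraries were below the lowest control, and the difference of -0.60 was -0.51 without PTU replicate 6. The log2 ratio of miR-30e-5p to miR-30c-5p averaged 2.10 ± 0.48 in PTU and 2.66 ± 0.31 in controls, with 3 PTU libraries below the control range. Its difference of -0.56 was -0.40 without PTU replicate 6. For the pair on chromosome 7, the log2 ratio of miR-30d-5p to miR-30b-5p averaged 4.09 ± 0.69 in PTU and 4.41 ± 0.36 in controls, a difference of -0.31 that was -0.074 without PTU replicate 6. These ratios were chosen as a description of how the members vary and were not tested.

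How far members moved together within groups did not follow genomic neighbourhood alone. The within-group SD of the log2 ratio includes counting error, which is larger for arms with few counts. It was 0.17 between miR-30a-5p and miR-30e-5p, the lowest of all pairs of members. They come from different chromosomes and differ by 1 base, and the split of reads between them may be uncertain, as said above. The SD was 0.19 between the arms of miR-30a and 0.19 between the arms of miR-30e. Neighbouring genes gave 0.20 for miR-30a-3p with miR-30c-2-3p, 0.26 for miR-30a-5p with miR-30c-2-3p and 0.29 for miR-30a-5p with miR-30c-5p. They gave 0.39 for miR-30e-5p with miR-30c-5p and 0.52 for miR-30d-5p with miR-30b-5p. The log2 ratio of this last pair was 2.89 in PTU replicate 6 and 3.63 to 4.65 in the other PTU libraries. Its SD without that library was not computed. miR-30b-5p was nearer to miR-30c-5p, at 0.32.

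For miR-30a and miR-30e the balance of arms differed between the groups by less than the spread between libraries. The log2 ratio of 5p to 3p counts of miR-30a averaged 3.47 ± 0.26 over the 6 PTU libraries and 3.39 ± 0.11 over the 8 control libraries (± SD), which corresponds to 11.1 and 10.5 counts of the guide for each count of the 3p arm. The difference of 0.075 had an exact two-sided permutation p of 0.490 over all 3003 assignments of the libraries. For miR-30e the ratio was 3.54 ± 0.23 in PTU and 3.54 ± 0.16 in controls (difference 0.0027, exact permutation p = 0.984). For miR-30d it was 8.87 ± 0.32 in PTU and 9.34 ± 0.69 in controls (difference -0.47, exact permutation p = 0.153), where the 3p arm had few counts. After adjustment over the 105 precursors listed with both arms, the p-values were 0.898, 0.993 and 0.552 for miR-30a, miR-30e and miR-30d. None of the 105 ratios passed an adjusted threshold of 0.05 (0%), and 10 (9.52%) had an unadjusted exact p under 0.05. The ratio of miR-30c-5p to miR-30c-2-3p mixes both miR-30c genes in its numerator. It averaged 5.02 ± 0.57 in PTU and 4.44 ± 0.35 in controls on the log2 scale, with all 6 PTU libraries above the control median. PTU replicate 6 was at 6.01 and the other 5 PTU libraries between 4.52 and 5.19, and the difference of 0.58 was 0.38 without PTU replicate 6. This ratio was not tested.

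**Figure D4:**
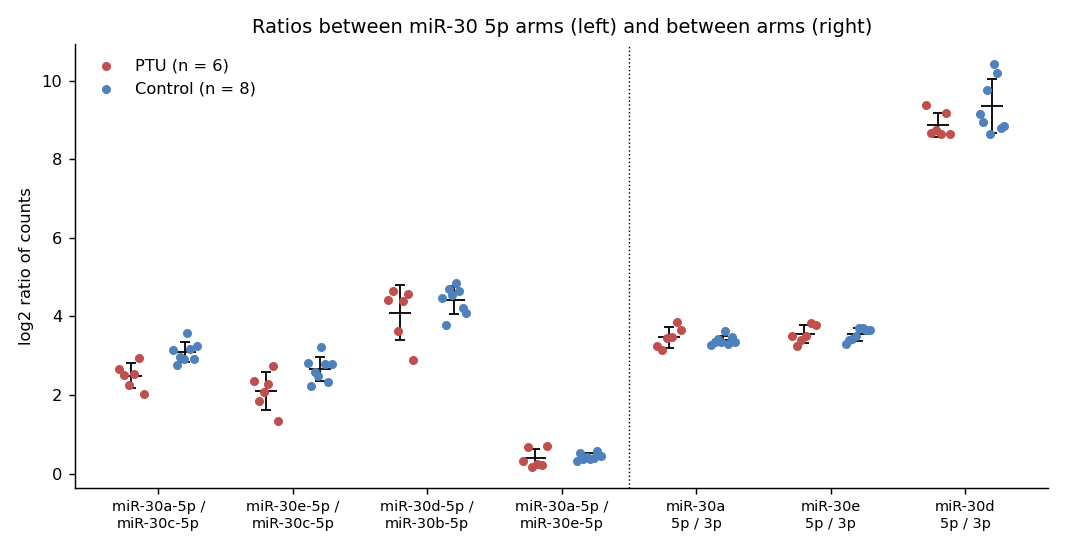
Log2 ratios of counts within each library, for pairs of guide arms (left of the dotted line) and for the 5p over the 3p arm of 1 precursor (right), with PTU left and control right in each pair; points are libraries and bars mean ± SD. The PTU points of miR-30a-5p over miR-30c-5p run from 2.02 to 2.95 and the control points from 2.76 to 3.57, while the arm ratios of miR-30a and miR-30e overlap.

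The miRNAs most like the summed guide arms were found as those whose log2 ratio to this sum had the smallest within-group SD over the 14 libraries. Outside the family the nearest 5 were miR-27b-3p (SD 0.094), miR-26b-5p (0.15), miR-361-5p (0.15), miR-143-3p (0.16) and miR-378a-3p (0.16), where the median of all tested miRNAs was 0.40. miR-27b-3p averaged 2890 ± 281 CPM in PTU and 3750 ± 327 CPM in controls, and miR-378a-3p 8732 ± 1067 CPM in PTU and 10528 ± 642 CPM in controls. On the same measure miR-30a-5p had 0.067, miR-30d-5p 0.14 and miR-30e-5p 0.20, which partly reflects their own weight in the sum. The value of miR-30e-5p was above those of all 5 named miRNAs from outside the family. miR-30c-5p had 0.29, and miR-30b-5p at 0.49 and miR-30d-3p at 0.54 lay above the median of all miRNAs.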

How the data were processed

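The authors deposited 1 table with raw counts per mature miRNA and library, not normalized, and with their own log2 fold change and mean log2 CPM, p-value and FDR, and the mean count (signal) of each group. Libraries were QIAseq miRNA libraries amplified over 22 PCR cycles, per the labels' protocols. Not given in the sources used here are the aligner, reference and build, and whether molecules or reads were counted. Among tools, edgeR appears in the submitters' processing notes. Each column was tied to its sample by the identifier that its title carries.

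Counts were fitted with edgeR 4.0.16 (R 4.3.3): filterByExpr kept 357 of 375 miRNAs, followed by TMM scaling, the quasi-likelihood test for PTU against control over all 14 libraries with no covariate, and Benjamini-Hochberg adjustment over all tested miRNAs. Standard errors are the absolute log2 fold change over the square root of F. Ratios used a pseudocount of 0.5 counts and exact permutation tests (scipy 1.17.1). The within-group SD used log2 CPM with a prior count of 2. The procedure was tested on simulated data. Alternatives were other scalings and filters, DESeq2 1.42.0, limma-voom (limma 3.58.1), the likelihood ratio test, the replicate number as a block, and each library left out. Named were all family members, listed miRNAs with the guide seed, the 5 most like miRNAs, and the let-7, miR-29 and marker lists. Members and lists were chosen with earlier results of these data known. miR-484, miR-141-3p and miR-23a-3p were named after their values were seen. Leaving out libraries for the miR-30c ratio, the 5p shares and the scaled sum, and the epithelial sum without miR-141-3p, were also chosen after seeing the data.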

Additional observations from a re-analysis of the deposited data

Results flagged for a closer look

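In PTU replicate 6 miR-30b-5p was at 1234 CPM, a gap to the next PTU library (505 CPM) that took 0.784 of the range of its group, above the 95% critical value of 0.625 for 6 libraries. Of 32 sets of values examined in this way (the members, the family share and the ratios in each group) this was the only such gap. Chance alone gives a gap past this critical value in about 1 of 20 sets. The 32 sets share members and libraries and are not independent, so 1 such gap cannot be judged against that rate. Whether this gap arose by chance was not tested. In the same library miR-484 was at 1061 CPM, miR-141-3p at 3441 CPM and miR-23a-3p at 7455 CPM, where the medians of the other 13 libraries were 60.8, 322 and 3238 CPM.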

How the results depend on the processing

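The number of miRNAs past an FDR of 0.05 was 0 in the fit reported. It was 3 with the likelihood ratio test, 1 with DESeq2 (which gave no adjusted p for 9 miRNAs) and 0 to 1 with 1 library left out. The other scalings, filters, limma-voom and the replicate block gave 0. No member passed 0.05 in any of these, and the lowest adjusted p was 0.0759, for miR-30a-3p with DESeq2. At an FDR of 0.1 the fit reported also gave 0, while DESeq2 gave 12, miR-30a-3p among them, and the likelihood ratio test 10. No scaling factors gave 1 at 0.1, the filter of 10 counts in 10 libraries 1, and 1 library left out 0 to 3. No other member passed 0.1. 7 of 9 members kept the sign of their log2 fold change throughout, with -0.45 to -0.26 for miR-30a-3p and -0.38 to -0.16 for miR-30a-5p. miR-30b-5p had -0.019 with limma-voom and -0.021 to 0.65 with 1 library left out. miR-30d-5p had -0.12 with upper-quartile factors (the median over all miRNAs then moved by -0.11), -0.029 with the replicate block, -0.065 with limma-voom and -0.095 to 0.060 with 1 library left out. miR-30d-3p did not pass the filter of 10 counts in 10 libraries. The difference in 5p to 3p ratio ran from -0.0040 to 0.14 for miR-30a with 1 library left out. For miR-30e it was -0.078 as a difference of medians and -0.056 to 0.063 with 1 library left out. The cause of these reversals was not tested. The difference in family share was -0.013 percentage points as reported, -0.15 from TMM-scaled sums, -0.068 without miR-206-3p, and -0.13 to 0.073 with 1 library left out. No likeness by replicate number was evident: correlations of same-numbered libraries ran from -0.25 to 0.29, and 1 of 6 PTU libraries correlated best with its own number. These values cannot tell whether the animals were paired. With the block, 27 miRNAs had an unadjusted p under 0.05.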
